A study of Mus musculus with 18 samples.

Results

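A set of 43 mouse genes of DNA replication and of the entry into S phase was followed through the knockdown (KD) experiment. The set is a list of symbols chosen by function, with earlier results of these data known and with no threshold on the measured values, and each symbol was matched to its Ensembl identifier in the table of counts. All 43 were found among the 55414 genes of the table, and all 43 were among the 17901 genes that passed the filter on low counts. They were placed in 6 roles: 10 genes of origin licensing, 6 of helicase activation, 12 of the polymerases and their clamp, 5 of fragment maturation and single-stranded DNA binding, 4 of nucleotide supply and 6 regulators of the G1/S transition.

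The cells were Neuro-2a (N2A), a mouse neuroblastoma line, and RNA was harvested 72 h after transfection with an siRNA, a short RNA duplex that directs the degradation of a matching mRNA. The study compared Scramble KD, in which the siRNAs serve as negative controls, with *Fmr1* KD, which depletes the mRNA of the RNA-binding protein FMRP, and *Zfp598* KD, which depletes the mRNA of a ubiquitin ligase that senses collided ribosomes. Each condition was produced with 2 siRNAs, lettered A and B, and each siRNA had 3 libraries (replicates 1 to 3), which gives 18 libraries in 6 groups. All 6 groups were transfected and share the same lipid reagent and culture medium, and libraries of untransfected cells were not analysed here. The same letter stands for a different siRNA in each condition, and the labels do not say whether a letter also marks a day or a plate, so the siRNA and any such batch cannot be told apart. The replicates of an siRNA are replicate transfections, so the p-values between single siRNAs measure the spread between transfections of the same cell line. In the pooled comparisons that spread also includes the difference between the 2 siRNAs of a condition.

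Cells license replication origins in G1 by loading the MCM helicase onto DNA with the origin recognition complex, Cdc6 and Cdt1. At the start of S phase Cdc45 and the GINS complex join the MCM ring to make the active helicase, primase and the polymerases copy the strands, and ribonucleotide reductase, thymidylate synthase and thymidine kinase supply the nucleotides. Many of these genes are transcribed in late G1 and S phase under E2F transcription factors, so their mRNAs are widely used as a measure of the proliferating share of a culture.

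The siRNA targets were depleted by both siRNAs of each KD. *Fmr1* mRNA was at 51.1 to 68.7 CPM (counts scaled to a common library size) in the 6 Scramble KD libraries, at 15.7 to 22 CPM with *Fmr1* siRNA A and at 25.1 to 27.5 CPM with *Fmr1* siRNA B. *Zfp598* mRNA was at 103 to 128 CPM in Scramble KD and at 32.2 to 48.7 CPM in the 6 *Zfp598* KD libraries. The CPM values use library sizes scaled by the trimmed mean of M-values (TMM). Total counts per library were 7674724 to 15414590, and the lowest were those of *Zfp598* siRNA A replicates 3 and 2. There the most counted feature, which GENCODE does not list, took 25.8% and 15.2% of the counts, against 5% to 11.1% in the other 16. The counts of called genes among the 43 are given below with and without these replicates. So are the values of the main genes of the *Zfp598* siRNA comparison. Of the neuronal and neuroblastoma markers, *Tubb3* and *Hand2* had at least 2444 counts in every library, whereas *Nefl* and *Nefm* had at most 6 and 4. Of the other cell types checked, the fibroblast marker *Lum* and the macrophage marker *Adgre1* were at 0 in every library. The summed level of the 7 fibroblast markers was 20.2 to 41.1 CPM, that of the 5 glial markers 3.23 to 6.45 CPM and that of the 6 macrophage markers 1.33 to 3.43 CPM. *Fmr1* siRNA B replicate 1 stood apart by 9 of the 14 matched pluripotent stem cell markers. It held 34 counts of *Pou5f1*, 110 of *Nanog* and 102 of *Zfp42*, while no other library held more than 1, 8 and 1. The counts of called genes among the 43, and the values of the main genes with *Fmr1* siRNA B, are therefore also given without it.

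The summed level of the replication and G1/S genes differed between the siRNAs of each condition. It was 1276, 1213 and 1363 CPM with Scramble siRNA A and 2063, 1981 and 2409 CPM with Scramble siRNA B. In *Fmr1* KD it was 1416, 1396 and 1425 CPM with siRNA A and 1994, 1927 and 1970 CPM with siRNA B. In *Zfp598* KD the sums were 1459, 1676 and 1732 CPM with siRNA A and 1843, 1923 and 1942 CPM with siRNA B. Every siRNA B library lay above every siRNA A library, in all 3 conditions together, and the gap was narrowest in *Zfp598* KD, between 1732 and 1843 CPM. The mRNA of a bulk culture does not separate fewer cells in S phase from less of these mRNAs per cell.

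**Figure D1:**
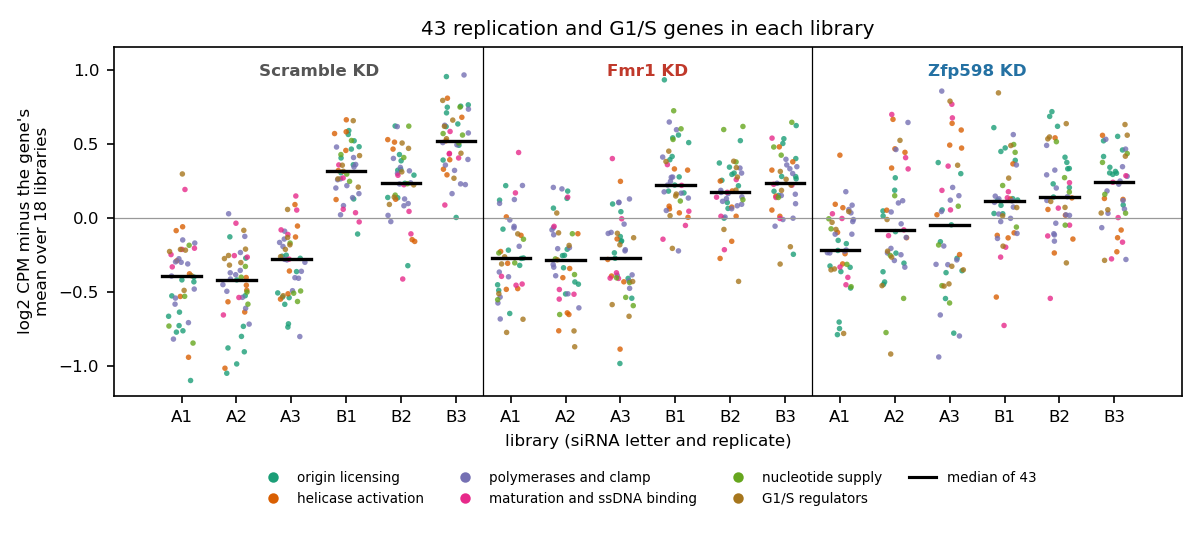
Each point is a gene, colored by role, and the y axis is its log2 CPM in a library minus its own mean over the 18 libraries; the x axis lists the libraries by siRNA letter and replicate, and the black lines are medians of the 43 genes. The medians lie between -0.42 and -0.04 in the 9 siRNA A libraries and between 0.12 and 0.52 in the 9 siRNA B libraries.

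Gene by gene, siRNA B was compared with siRNA A within each condition by edgeR's quasi-likelihood test in a model of the 6 groups, with p-values adjusted by the Benjamini-Hochberg method over the 17901 genes. A gene was called at an adjusted p under 0.05. In Scramble KD, 37 of the 43 genes were called higher with siRNA B and none lower, where 10.4% of all tested genes were called higher and 12.2% lower. In *Fmr1* KD, 30 were called higher and none lower (13.3% and 11.1% of all tested genes). In *Zfp598* KD, 20 were called higher and 5 lower (15.6% and 19.7%). The median log2 fold change of the 43 was 0.72 in Scramble KD (range 0.05 to 1.41), 0.44 in *Fmr1* KD (-0.06 to 1.37) and 0.26 in *Zfp598* KD (-0.73 to 1.04), whereas that of all tested genes was within 0.01 of 0 in each. The levels of the siRNA A and siRNA B libraries did not overlap, siRNA B above, for 38, 33 and 23 of the 43 genes, where this held for 19.2%, 22.3% and 19.7% of all tested genes. In *Zfp598* KD siRNA B lay below without overlap for 4 of the 43 (20.7% of all tested genes). More than 2-fold higher, and called, were 13, 2 and 1 of the 43 (1.5%, 3.23% and 3.26% of all tested genes).

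These counts depended on single libraries to different degrees. Without *Fmr1* siRNA B replicate 1, 24 of the 43 genes were called higher in *Fmr1* KD, with a median of 0.40. The values of its main genes were then 1.21 for *Cdc6*, 0.89 for *Gins1*, 0.75 for *Pola1*, 0.67 for *Rpa2*, 1.01 for *Rrm2* and 1.03 for *E2f2*, all called. Without *Zfp598* siRNA A replicates 2 and 3, 19 genes were called higher and 0 lower in *Zfp598* KD, with a median of 0.37, so none of the 5 calls of a lower level (*Gins1*, *Gins4*, *Pold1*, *Lig1* and *E2f1*) remained. *Mcm4* (0.90), *Pola1* (0.77), *Tyms* (0.82) and *Ccne2* (0.81) were still called higher. The *Zfp598* siRNA A library that is left was then assumed to vary like the other groups. Without Scramble siRNA B replicate 3, 31 genes were called higher in Scramble KD. With library sizes taken from total counts in place of TMM, the median of all tested genes in *Zfp598* KD shifted by 0.24, 75.2% of the calls over all genes were higher rather than 44.2%, and 28 of the 43 genes were called higher and 3 lower.

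The 3 comparisons of siRNA B with siRNA A have no library in common. Called higher in all 3 were 15 of the 43 genes (34.9%), against 113 of the 17901 tested genes (0.631%). They were the licensing genes *Orc6*, *Cdc6*, *Cdt1*, *Mcm4*, *Mcm5* and *Mcm6*, the helicase activator *Cdc45*, both subunits of polymerase alpha (*Pola1*, *Pola2*), the sliding clamp *Pcna*, the nucleotide enzymes *Rrm2* and *Tyms*, and the regulators *E2f2*, *Ccne1* and *Uhrf1*. *Fen1*, *Gins4* and *Rpa3* were called higher in none. Across the 43 genes, which share libraries and are no independent replicates, the log2 fold changes in Scramble KD had a Pearson correlation of 0.39 with those in *Fmr1* KD and 0.49 with those in *Zfp598* KD, and those in *Fmr1* KD and *Zfp598* KD one of 0.12. Over all 17901 tested genes these correlations were 0.07, 0.19 and -0.08.

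**Figure D2:**
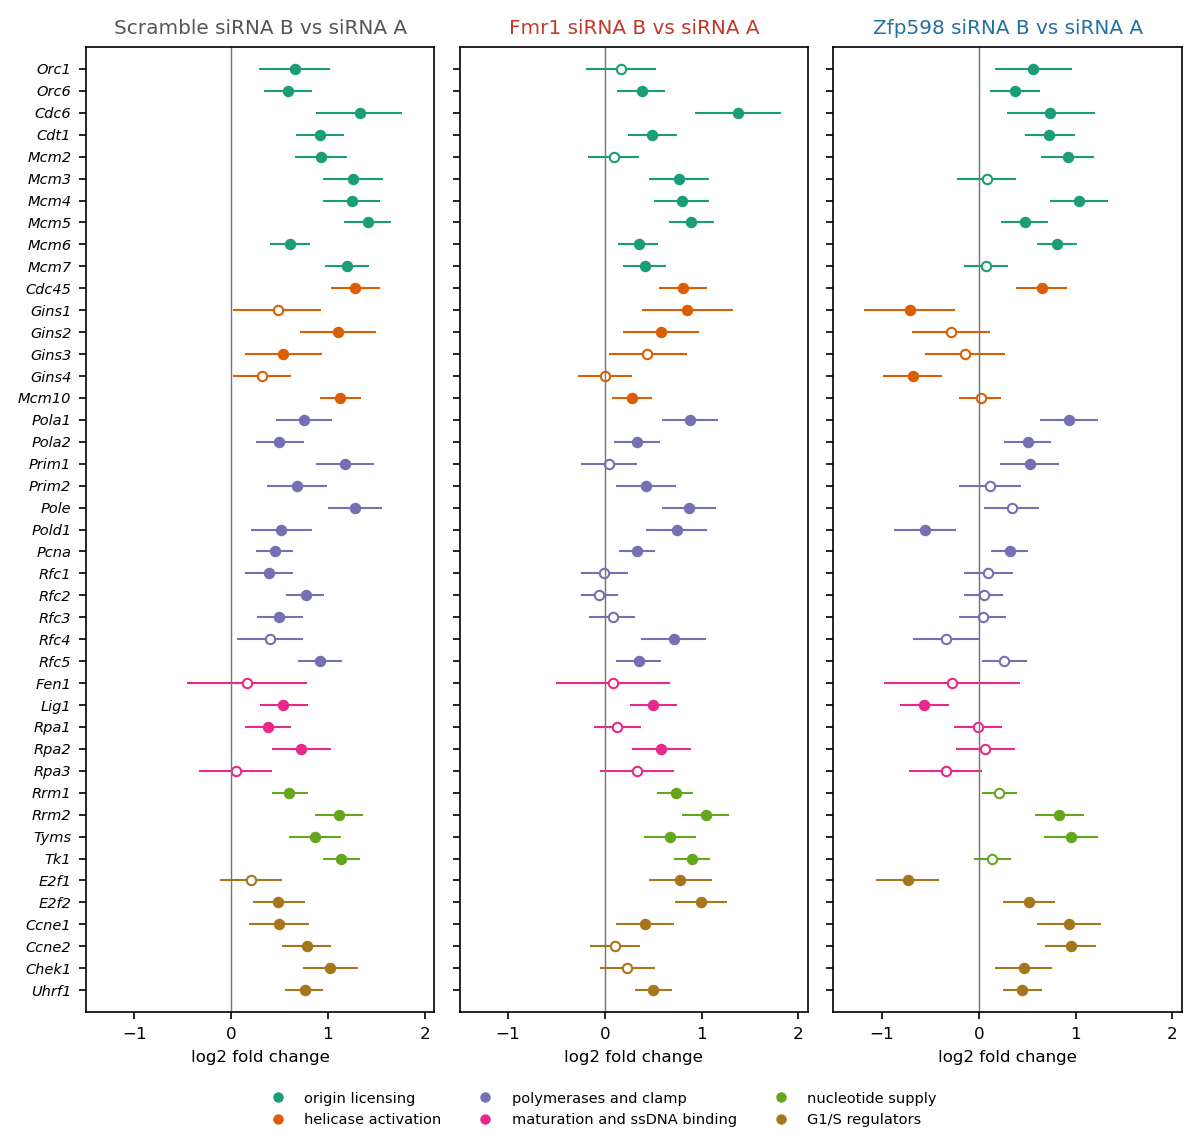
The log2 fold change of siRNA B against siRNA A is plotted for each of the 43 genes, with a panel for each condition, lines for 95% intervals and filled points for genes called at an adjusted p under 0.05. All 43 points lie right of 0 in Scramble KD, while in *Zfp598* KD the GINS genes, *Pold1*, *Rfc4*, *Fen1*, *Lig1*, *Rpa1*, *Rpa3* and *E2f1* lie left of it.

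The origin licensing genes had a median log2 fold change of 1.06 between the Scramble siRNAs, 0.45 between the *Fmr1* siRNAs and 0.65 between the *Zfp598* siRNAs, and 10, 8 and 8 of the 10 genes were called higher. *Mcm5*, a subunit of the MCM helicase ring, was at 23.4, 22.3 and 27.3 CPM with Scramble siRNA A and at 58.6, 59.9 and 75.6 CPM with Scramble siRNA B. The siRNA B libraries were all more than 2-fold above the highest siRNA A library. Its log2 fold change of 1.41 (SE 0.116, adjusted p = 6.51e-08) was the highest of the 43 in this comparison, and it was 0.89 in *Fmr1* KD (adjusted p = 8.29e-06) and 0.48 in *Zfp598* KD (adjusted p = 0.00372). *Cdc6*, the ATPase that helps load the ring, was at 5.75, 6.31 and 4.51 CPM with *Fmr1* siRNA A and at 17.5, 11.6 and 14.1 CPM with *Fmr1* siRNA B. The groups were well apart, and the stem cell marker-positive replicate 1 was the highest. The log2 fold change was 1.37 (SE 0.211, adjusted p = 5.97e-05), and 1.21 (adjusted p = 0.000699) without that library.

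The calls were not the same for all subunits of the MCM ring, and the difference between subunits was not tested. *Mcm4* was at 21.5, 19.9 and 15.7 CPM with *Zfp598* siRNA A and at 36.9, 43.5 and 38.8 CPM with siRNA B. All siRNA B libraries were above all siRNA A libraries, and the log2 fold change was 1.04 (SE 0.145, adjusted p = 2.12e-05). *Mcm2* (0.92, adjusted p = 2.75e-05) and *Mcm6* (0.81, adjusted p = 5.55e-06) were also called higher in this comparison. *Mcm3* and *Mcm7* were not. With *Zfp598* siRNA A, *Mcm3* was at 46, 70.1 and 75.2 CPM, and with siRNA B at 63.1, 66.9 and 71.2 CPM. *Mcm7* was at 66.1, 83.6 and 90.4 CPM and at 74.9, 86.2 and 90.5 CPM. In both genes the 2 groups overlapped, and the log2 fold changes of 0.09 (95% interval -0.22 to 0.39) and 0.08 (-0.15 to 0.30) did not pass the test. In both, *Zfp598* siRNA A replicate 1 was below all siRNA B libraries. The overlap came from siRNA A replicates 2 and 3, in which the most counted feature took 15.2% and 25.8% of the counts. In *Fmr1* KD the subunit that stayed out was *Mcm2*, at 97.6, 95.1 and 89.6 CPM with siRNA A and 102, 104 and 95.1 CPM with siRNA B (log2 fold change 0.09, 95% interval -0.17 to 0.35), whereas the other 5 subunits were called higher by 0.35 to 0.89.

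**Figure D3:**
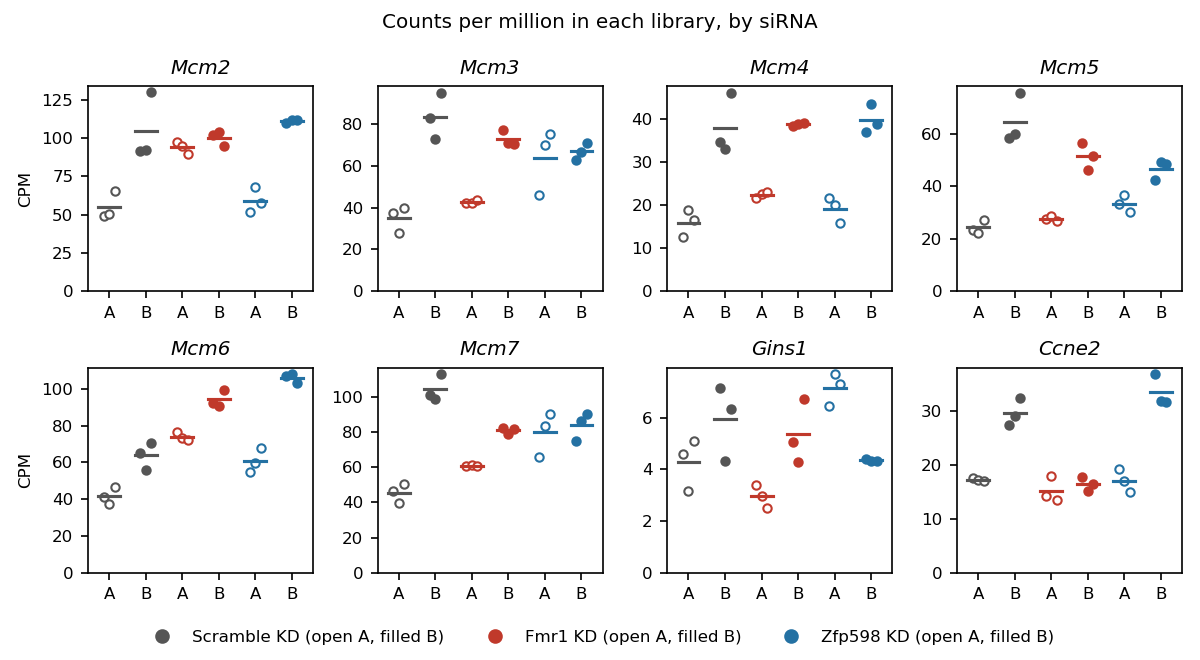
CPM in each library is plotted on a linear axis from 0 for the MCM subunits *Mcm2* to *Mcm7*, *Gins1* and *Ccne2*, with open points for siRNA A, filled points for siRNA B and a bar for the mean of 3 libraries. *Mcm6* lies higher in each KD siRNA than in the Scramble siRNA of the same letter, and *Ccne2* with *Fmr1* siRNA B (15.1 to 17.7 CPM) stays at the level of the siRNA A libraries.

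The helicase activation genes had a median of 0.82 in Scramble KD, of 0.51 in *Fmr1* KD and of -0.21 in *Zfp598* KD. *Cdc45*, which joins the MCM ring together with GINS, was at 9.51, 11.8 and 12.5 CPM with Scramble siRNA A and at 27.6, 25.5 and 29.6 CPM with siRNA B. The groups were far apart, with a log2 fold change of 1.28 (SE 0.123, adjusted p = 3.58e-07). It was also called higher in *Fmr1* KD (0.81) and *Zfp598* KD (0.65), the only gene of this role called in all 3. *Gins1*, a GINS subunit, was at 3.38, 2.99 and 2.52 CPM with *Fmr1* siRNA A and at 5.06, 4.27 and 6.73 CPM with *Fmr1* siRNA B (log2 fold change 0.85, SE 0.228, adjusted p = 0.00884). With *Zfp598* siRNA A it was at 6.47, 7.68 and 7.29 CPM and with *Zfp598* siRNA B at 4.39, 4.32 and 4.34 CPM. The order of the siRNAs was thus opposite in the KDs, without overlap in either. The log2 fold change in *Zfp598* KD was -0.71 (SE 0.226, adjusted p = 0.0199), and -0.55 (adjusted p = 0.241) without *Zfp598* siRNA A replicates 2 and 3. In *Fmr1* KD the adjusted p was 0.0668 without siRNA B replicate 3. *Gins4* was also called lower with *Zfp598* siRNA B (-0.68, adjusted p = 0.00134), while *Gins2* (-0.29) and *Gins3* (-0.14) did not pass the test. *Gins1* is among the least counted genes of the set, at 34 to 109 counts in a library.

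Among the 12 genes of the polymerases and their clamp, 11, 8 and 4 were called higher, and *Pold1*, the catalytic subunit of polymerase delta, was called lower in *Zfp598* KD (-0.55, adjusted p = 0.00836) with groups that overlapped. The medians were 0.60, 0.34 and 0.19. *Pole*, the catalytic subunit of the leading-strand polymerase epsilon, was at 24.1, 27.1 and 28 CPM with Scramble siRNA A and at 55, 60.5 and 77.1 CPM with siRNA B. The siRNA B libraries were each close to or above 2-fold of the highest siRNA A library, and the log2 fold change was 1.28 (SE 0.135, adjusted p = 1.17e-06). *Pola1*, the catalytic subunit of polymerase alpha, which extends the RNA primer, was at 20, 18.5 and 18.9 CPM with *Fmr1* siRNA A and at 41.5, 29.6 and 34.8 CPM with *Fmr1* siRNA B. In *Zfp598* KD it was at 22.7, 22.4 and 13.7 CPM with siRNA A and at 39.1, 37.2 and 38.2 CPM with siRNA B. The groups did not overlap in either KD, and the siRNA B libraries reached about the same level in both. The log2 fold changes were 0.88 (SE 0.139, adjusted p = 7.9e-05) and 0.93 (SE 0.144, adjusted p = 6.37e-05). The clamp loader genes *Rfc1*, *Rfc2* and *Rfc3* were called higher in Scramble KD (0.39, 0.77 and 0.50) and not in *Fmr1* KD (-0.01, -0.06 and 0.08) or *Zfp598* KD (0.10, 0.05 and 0.04).

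The genes of fragment maturation and single-stranded DNA binding had the lowest medians, 0.38, 0.33 and -0.28. *Rpa2*, a subunit of the single-stranded DNA binding complex RPA, was at 27.6, 22.5 and 27 CPM with Scramble siRNA A and at 39.6, 38.3 and 49.2 CPM with siRNA B. In *Fmr1* KD it was at 23.9, 22.9 and 24.6 CPM and at 31.6, 37 and 38.4 CPM. The groups were apart in both conditions, with log2 fold changes of 0.72 (SE 0.144, adjusted p = 0.00104) and 0.58 (SE 0.145, adjusted p = 0.00521). *Lig1*, the ligase that joins lagging-strand fragments, was called higher in Scramble KD (0.54) and *Fmr1* KD (0.50). In *Zfp598* KD it was at 61.8, 82.2 and 99.1 CPM with siRNA A and at 51.5, 56.9 and 55.3 CPM with siRNA B. Every siRNA B library was below every siRNA A library, and siRNA A replicates 2 and 3 were the highest. The log2 fold change of -0.56 (SE 0.118, adjusted p = 0.00115) became -0.16 (adjusted p = 0.350) without those 2 libraries. *Fen1*, the flap endonuclease, had 11 to 37 counts per library and passed no test of siRNA B against siRNA A.

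All 4 nucleotide supply genes were called higher with siRNA B in Scramble KD and in *Fmr1* KD, and *Rrm2* and *Tyms* in *Zfp598* KD, with medians of 0.99, 0.81 and 0.52. *Tk1*, thymidine kinase, was at 20.9, 24.5 and 23.4 CPM with Scramble siRNA A and at 46.8, 53.5 and 51.7 CPM with siRNA B. The replicates of each siRNA lay close together and the groups far apart (log2 fold change 1.14, SE 0.0912, adjusted p = 4.98e-08). In *Zfp598* KD the difference of *Tk1* was 0.14 (adjusted p = 0.259). *Rrm2*, the regulated subunit of ribonucleotide reductase, was at 23.5, 21.2 and 19 CPM with *Fmr1* siRNA A and at 45.8, 41.9 and 43.4 CPM with *Fmr1* siRNA B. The groups did not overlap, and the log2 fold change was 1.04 (SE 0.115, adjusted p = 1.34e-06). *Tyms*, thymidylate synthase, was at 18.8, 16 and 15.7 CPM with *Zfp598* siRNA A and at 33.1, 33.5 and 31.7 CPM with *Zfp598* siRNA B. All siRNA B libraries were well above the siRNA A libraries (log2 fold change 0.95, SE 0.134, adjusted p = 2.44e-05).

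Of the 6 G1/S regulators, 5, 4 and 5 were called higher with siRNA B, with medians of 0.63, 0.45 and 0.50. *Chek1*, the kinase that restrains replication when forks stall, was at 12.2, 13.8 and 11 CPM with Scramble siRNA A and at 25.3, 22.2 and 27.8 CPM with siRNA B (log2 fold change 1.02, SE 0.136, adjusted p = 1.61e-05). *E2f2*, an activating E2F factor, was at 23.3, 21.7 and 25.1 CPM with *Fmr1* siRNA A and at 44.2, 45.4 and 49.6 CPM with *Fmr1* siRNA B (0.99, SE 0.13, adjusted p = 1.02e-05). Neither pair of groups overlapped. *Ccne2*, a cyclin that activates CDK2 at the G1/S boundary, was at 19.3, 17 and 14.9 CPM with *Zfp598* siRNA A and at 36.8, 31.8 and 31.7 CPM with *Zfp598* siRNA B (0.95, SE 0.124, adjusted p = 1.06e-05). *E2f1*, the founding activating E2F factor, went apart from *E2f2*. It was called higher with siRNA B in *Fmr1* KD (0.78, adjusted p = 0.000755), called lower in *Zfp598* KD (-0.73, adjusted p = 0.00119), though not without *Zfp598* siRNA A replicates 2 and 3, and in Scramble KD its difference of 0.21 did not pass the test (adjusted p = 0.353).

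Since E2F factors are known regulators of this set, the 300 bases from 250 before to 50 after the start of each gene's canonical transcript were read from the GRCm39 genome with GENCODE M39. They were searched on both strands for TTTCCCGC, TTTGGCGC, TTTCGCGC and TTTGCCGC, 4 spellings of the E2F motif, which can overlap where a site reads alike on both strands. Matches were found in 13 of the 43 promoters (30.2%), against 505 of 12796 promoters (3.95%) of tested protein-coding genes. The share was similar, 20 of 76 (26.3%), in a list of other replication and G1/S genes described below. The windows below are from genes whose values are given above or below, on the strand of the gene, and the capitals mark the bases of a match on either strand.
Mcm5: ccaagaacTTTCGCGCCAAAacgt
Mcm6: cgtatgctTTTGGCGCGAAAagtg
Mcm4: gccccgggTTTCCCGCcaaaacgc
Mcm3: cttccgtgGCGGGAAAacttggga
Gins1: tgagcctaTTTGGCGCCAAAgcga
Pola1: atcacaggGCGCCAAAtgcactcc
Cdc6: agagcggcTTTGGCGCga
E2f2: gcatatagTTTGGCGCtaa

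The *Mcm5* window is chr8:75835976-75835999 on the plus strand, with a match that begins 156 bases before the start. The *Mcm6* window is chr1:128287537-128287560 on the minus strand, with a match 100 bases before the start. The windows of *Mcm4* (chr16:15455473-15455496, minus strand) and *Pola1* (chrX:92675884-92675907, minus strand) also lie before the start. Those of *Mcm3* (chr1:20890502-20890525, minus strand), *Gins1* (chr2:150751497-150751520, plus strand), *Cdc6* (chr11:98798659-98798676, plus strand) and *E2f2* (chr4:135899616-135899634, plus strand) lie within the 50 bases after it. The matches of *Mcm5*, *Mcm6* and *Gins1* overlap on both strands. CCAAT was found in 58.1% of the 43 promoters and in 39.6% of all, and TTTGAA, the core of the cell cycle homology region of mitotic genes, in 6.98% and 13.4%. Between siRNA B and siRNA A, the 13 genes with a match and the 30 without had medians of 0.75 and 0.70 in Scramble KD, 0.80 and 0.40 in *Fmr1* KD and 0.52 and 0.13 in *Zfp598* KD, which is a description of these letters and no test of the factors.

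With both siRNAs of a condition pooled, as the study did (6 libraries against 6), nearly none of the set passed the test, and few of all tested genes did. In *Fmr1* KD, 1 of the 43 genes was called higher and none lower, where 2.73% and 3.8% of all tested genes were. In *Zfp598* KD 0 were called in the edgeR test, with 3 at an unadjusted p under 0.05 and 1 called by DESeq2, where edgeR called 0.916% of all tested genes higher and 1.04% lower. The medians were -0.03 and 0.08, and the median SE of a gene's log2 fold change was 0.201 and 0.203, against 0.129 between the Scramble siRNAs. On simulated data the pooled *Fmr1* KD test called 32 of 100 genes changed 1.5-fold and 80 of 100 changed 2-fold. The small number of calls thus does not show that the set was unchanged. The gene called in *Fmr1* KD was *Mcm6*, an MCM subunit. It was at 41.3, 37.4 and 46.8 CPM with Scramble siRNA A, at 65.1, 56.1 and 70.4 CPM with Scramble siRNA B, at 76.3, 73.5 and 72.3 CPM with *Fmr1* siRNA A and at 92.3, 90.9 and 99.6 CPM with *Fmr1* siRNA B. All 6 *Fmr1* KD libraries were above all 6 Scramble KD libraries, by a log2 fold change of 0.67 (SE 0.183, adjusted p = 0.0316). The call was lost without any 1 of 7 libraries, those of *Fmr1* siRNA B, those of Scramble siRNA A and Scramble siRNA B replicate 2, with adjusted p of 0.0563 to 0.0687. With *Zfp598* siRNA A *Mcm6* was at 54.6, 59.5 and 68 CPM and with *Zfp598* siRNA B at 107, 108 and 103 CPM. The siRNA A libraries overlapped Scramble KD, and the pooled log2 fold change of 0.66 (SE 0.183) had an adjusted p of 0.0633. With total counts the share of higher calls over all genes went from 41.8% to 68.2% in *Fmr1* KD and from 46.7% to 24.1% in *Zfp598* KD, and 1 and 0 of the 43 were called as before. With the siRNA letter as a term beside the condition, *Mcm6* was called higher in both KDs (adjusted p = 0.000118 and 0.00124). With counts summed per siRNA, which leaves 2 values a condition, it was called in neither (adjusted p = 0.999 and 1).

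The next lowest adjusted p-values of the pooled comparisons missed the threshold in the main fit. *Ccne2* was at 17 to 17.5 CPM with Scramble siRNA A, at 27.4 to 32.3 CPM with Scramble siRNA B while the *Fmr1* KD libraries were at 13.5 to 17.9 CPM, which gave -0.57 on the log2 scale (adjusted p = 0.118). *Rfc1*, the large subunit of the clamp loader, was at 77.8 to 115 CPM in Scramble KD and at 55.5 to 91 CPM in *Zfp598* KD (-0.34, adjusted p = 0.117). In both genes the conditions overlapped. *Ccne2* was called lower in 2 of 9 alternative settings, among them the siRNA letter as a term (-0.50, adjusted p = 0.0244). *Rfc1* stayed uncalled in all 9, but was called lower without *Zfp598* siRNA A replicate 1 (-0.40, adjusted p = 0.0481).

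Next, each KD siRNA was set against the Scramble siRNA that carries its letter. Since a letter stands for a different siRNA in each condition, this pairing is a choice, and the calls depend on it. The *Fmr1* and *Zfp598* comparisons of a letter share their 3 Scramble libraries, and their values are given side by side. For siRNA A, 8 of the 43 genes rose and 3 fell in *Fmr1* KD (10% and 13.6% of all tested genes), and 18 rose and 1 fell in *Zfp598* KD (6.3% and 5.64%). For siRNA B, 1 rose and 8 fell in *Fmr1* KD (11.3% and 11.3%), and 1 rose and 14 fell in *Zfp598* KD (12.4% and 14.4%). The medians were 0.16 and 0.34 for siRNA A, and -0.12 and -0.25 for siRNA B. The *Zfp598* siRNA A calls were the least stable: without its replicates 2 and 3, 4 genes rose and 0 fell, without its replicate 2 alone or without Scramble siRNA A replicate 2, 8 rose and 0 fell, and in a fit of these 6 libraries alone none was called. With total counts 6 rose and 1 fell, where the share of higher calls over all genes went from 52.8% to 18.3%. For *Fmr1* siRNA A this share went from 42.4% to 58.5% (12 of the 43 rose and 2 fell), and for *Fmr1* siRNA B from 50% to 69.9% (1 rose and 5 fell). Leaving out Scramble siRNA B replicate 3, the library with the highest sum, left 4 genes that fell with *Fmr1* siRNA B and 7 with *Zfp598* siRNA B.

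In the fit of all 18 libraries *Mcm6* rose with all 4 KD siRNAs against the Scramble siRNA of the same letter. Its log2 fold change was 0.82 (SE 0.1, adjusted p = 4.31e-06) with *Fmr1* siRNA A, 0.56 (SE 0.0977, adjusted p = 0.000277) with *Fmr1* siRNA B, 0.53 (SE 0.102, adjusted p = 0.00204) with *Zfp598* siRNA A and 0.73 (SE 0.0979, adjusted p = 1.49e-05) with *Zfp598* siRNA B. In each the 3 KD libraries were above the 3 Scramble libraries of that letter. For *Zfp598* siRNA A the call was lost in the fit of only the libraries compared. Its libraries, at 54.6 to 68 CPM, also overlapped those of Scramble siRNA B, at 56.1 to 70.4 CPM. None of the other 42 genes was called in the same direction in all 4 comparisons in the fit of all 18 libraries.

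*Prim1*, the catalytic subunit of primase, was at 17, 22 and 17.2 CPM with Scramble siRNA A and at 35.1, 34.8 and 32.9 CPM with *Fmr1* siRNA A. It rose without overlap by a log2 fold change of 0.87 (SE 0.144, adjusted p = 0.00015). With Scramble siRNA B (40, 37.6 and 50.2 CPM) and *Fmr1* siRNA B (35.1, 38.1 and 32.2 CPM) the libraries overlapped. *Fmr1* siRNA A thus stood at the level of *Fmr1* siRNA B. *Mcm2* (0.78), *Mcm4* (0.49) and *Mcm7* (0.42) also rose with *Fmr1* siRNA A, while *E2f1* (-0.66, adjusted p = 0.00374), *E2f2* (-0.53, adjusted p = 0.005) and *Rrm1* (-0.35, adjusted p = 0.00742) fell. *Mcm7* and *Mcm3* had the lowest adjusted p with *Zfp598* siRNA A. *Mcm7* was at 46.3, 39.9 and 50.5 CPM with Scramble siRNA A, below all 3 *Zfp598* siRNA A libraries, and rose by 0.81 (SE 0.11, adjusted p = 7.89e-05). *Mcm3* was at 37.3, 28 and 40 CPM with Scramble siRNA A and rose by 0.85 (SE 0.151, adjusted p = 0.00101). Without *Zfp598* siRNA A replicates 2 and 3 the values were 0.53 (adjusted p = 0.0123) for *Mcm7* and 0.38 (adjusted p = 0.157) for *Mcm3*. *Ccne1*, the other E-type cyclin, fell with *Zfp598* siRNA A (-0.56, adjusted p = 0.0271).

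With siRNA B, *Ccne2* was at 27.4, 29 and 32.3 CPM in Scramble KD and at 17.7, 15.1 and 16.4 CPM in *Fmr1* KD. The groups did not overlap, with *Fmr1* KD the lower, and *Ccne2* fell by 0.85 on the log2 scale (SE 0.12, adjusted p = 3.02e-05). In *Zfp598* KD its difference was 0.18 and did not pass the test. *Mcm10*, which is needed to start unwinding at the origin, was at 54.2, 48.8 and 60 CPM with Scramble siRNA B, at 35, 36 and 34.5 CPM with *Fmr1* siRNA B and at 31.1, 34.6 and 37.3 CPM with *Zfp598* siRNA B. The Scramble libraries were above the libraries of both KDs, and *Mcm10* fell by 0.63 (SE 0.0987, adjusted p = 9.54e-05) and by 0.66 (SE 0.0994, adjusted p = 5e-05). Both comparisons use these 3 Scramble libraries. Without *Fmr1* siRNA B replicate 1, 1 gene rose and 8 fell in *Fmr1* KD, *Ccne2* by 0.90 and *Mcm10* by 0.62.

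**Figure D4:**
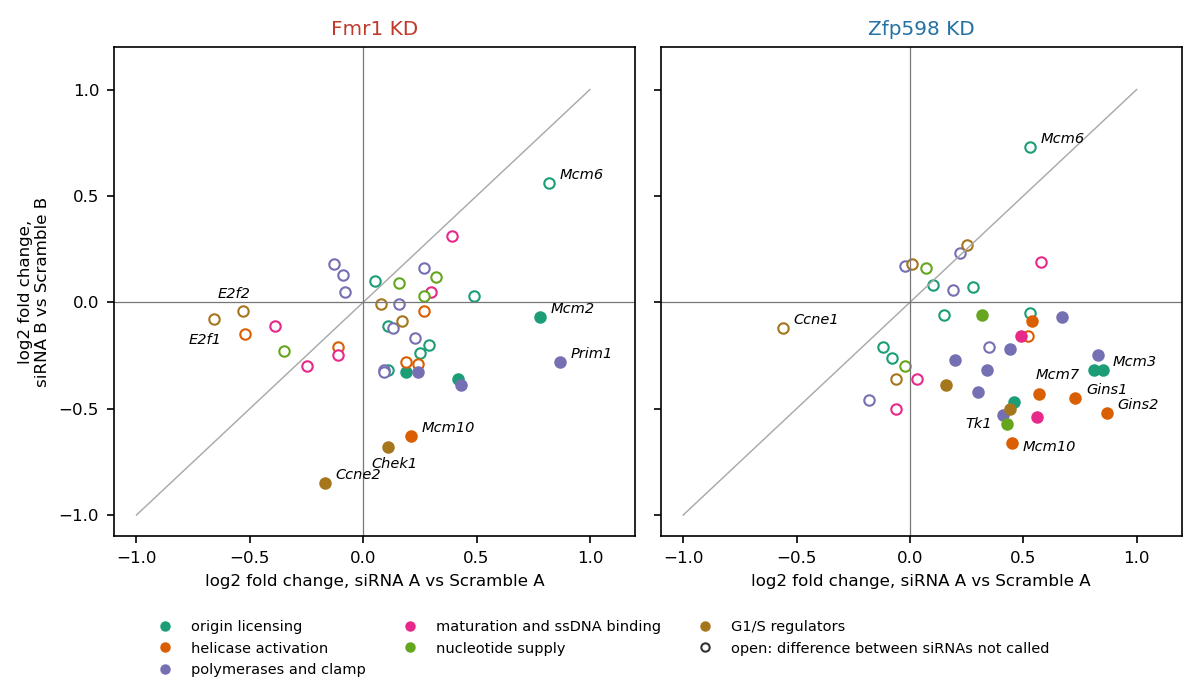
For each of the 43 genes, the log2 fold change of a KD siRNA A against Scramble siRNA A (x axis) is set against that of siRNA B against Scramble siRNA B (y axis), in *Fmr1* KD and *Zfp598* KD; the diagonal marks equal changes, colors mark roles, and filled points are genes whose change differed between the siRNAs at an adjusted p under 0.05. The filled points, 9 and 21, all lie below the diagonal, and *Mcm6* is at the upper right in both panels.

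The difference between the effects of the 2 siRNAs was tested directly, with each effect taken against the Scramble siRNA of the same letter. In *Fmr1* KD the effect of siRNA B was below that of siRNA A for 9 of the 43 genes and above it for none (9.65% and 12.2% of all tested genes). In *Zfp598* KD it was below for 21 and above for none (11.9% and 10.1%). These tests use the same Scramble libraries as the comparisons above, in which the set was higher with siRNA B. Their direction depends on the pairing by letter, which the labels do not give. Against a common Scramble baseline the difference is that of siRNA B against siRNA A. By that measure 30 of the 43 genes were called higher and 0 lower in *Fmr1* KD, and 20 and 5 in *Zfp598* KD. Without *Zfp598* siRNA A replicates 2 and 3 the counts were 14 below and 2 above in *Fmr1* KD, and 14 and 0 in *Zfp598* KD. With total counts they were 10 and 2, and 14 and 2, where the share of higher calls over all genes in *Zfp598* KD went from 46% to 71.6%. The largest such differences were those of *Prim1* in *Fmr1* KD (-1.15, SE 0.199, adjusted p = 0.000263) and of *Gins2* in *Zfp598* KD (-1.39, SE 0.271, adjusted p = 0.00087). With no Scramble library, the difference between siRNA B and siRNA A was compared between the KDs. It was greater in *Fmr1* KD for 12 genes and smaller for 3 (17.6% and 14.4% of all tested genes). *Gins1* (1.56, SE 0.321, adjusted p = 0.000884) and *E2f1* (1.52, SE 0.22, adjusted p = 2.46e-05) differed most, and *Pold1* (1.29), *Lig1* (1.06) and *Rfc4* (1.04) also differed by more than 2-fold. The lower levels of *Gins1*, *E2f1*, *Pold1* and *Lig1* with *Zfp598* siRNA B depended on *Zfp598* siRNA A replicates 2 and 3. Without that pair the *Zfp598* log2 fold change went from -0.71 to -0.55 for *Gins1* and from -0.56 to -0.16 for *Lig1*. The 3 with a smaller difference in *Fmr1* KD were *Ccne2* (-0.85, adjusted p = 0.000913), *Mcm2* (-0.83, adjusted p = 0.00155) and *Mcm6* (-0.47, adjusted p = 0.0141). Without *Zfp598* siRNA A replicates 2 and 3 the counts were 8 and 4, and with total counts 6 and 5 (55% of the calls over all genes were higher with TMM, 35.7% with total counts).

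The other genes of the pathway were taken from a list of 76 further replication and G1/S genes, 73 of which passed the filter. With siRNA B against siRNA A, 46 were called higher and 0 lower in Scramble KD, 29 and 7 in *Fmr1* KD and 31 and 12 in *Zfp598* KD, with medians of 0.49, 0.27 and 0.21. Of all tested genes, 10.4% were called higher and 12.2% lower in Scramble KD, 13.3% and 11.1% in *Fmr1* KD, and 15.6% and 19.7% in *Zfp598* KD. Lower calls were thus no more frequent in this list than among all tested genes. *Topbp1*, an activator of origin firing, was higher by 1.17, the exonuclease *Exo1* by 1.34 and the repair gene *Brca1* by 1.25 in Scramble KD (adjusted p at most 1.33e-07). *Exo1* (1.04) and *Brca1* (1.07) were also higher in *Zfp598* KD, where *Pold4*, the small subunit of polymerase delta, was lower by -2.16 (adjusted p = 1.19e-05). In *Fmr1* KD *Ticrr*, which brings Cdc45 to origins, was higher by 1.30 and the repressor *E2f7* by 1.09. Of the 7 CDK inhibitors, which oppose entry into S phase, 6 passed the filter. *Cdkn1a* (p21) was lower with siRNA B in *Fmr1* KD (-0.36, adjusted p = 0.0311), and its differences in Scramble KD (0.10) and *Zfp598* KD (0.02) did not pass the test. *Cdkn2c* was higher in Scramble KD (0.64) and *Fmr1* KD (1.00), *Cdkn2b* in Scramble KD (0.83), and *Cdkn2d* higher in *Fmr1* KD (1.26) and lower in *Zfp598* KD (-0.61). *Cdkn2a* was lower in *Zfp598* KD (-1.08, adjusted p = 0.00262) with overlapping libraries, and *Cdkn1b* was called in no condition.

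Of 20 mitosis genes, taken for comparison, 19 were called higher in Scramble KD, 20 in *Fmr1* KD, and 5 higher and 4 lower in *Zfp598* KD. Among all tested genes 10.4%, 13.3% and 15.6% were called higher, and 19.7% lower in *Zfp598* KD, near the share of the mitosis genes called lower there. The medians of the mitosis genes were 0.88, 0.84 and 0.09. The replication set thus had a lower median than the mitosis list in *Fmr1* KD (0.44 against 0.84) and a higher one in *Zfp598* KD (0.26 against 0.09). These are descriptions of the lists, and the difference between them was not tested.

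**Figure D5:**
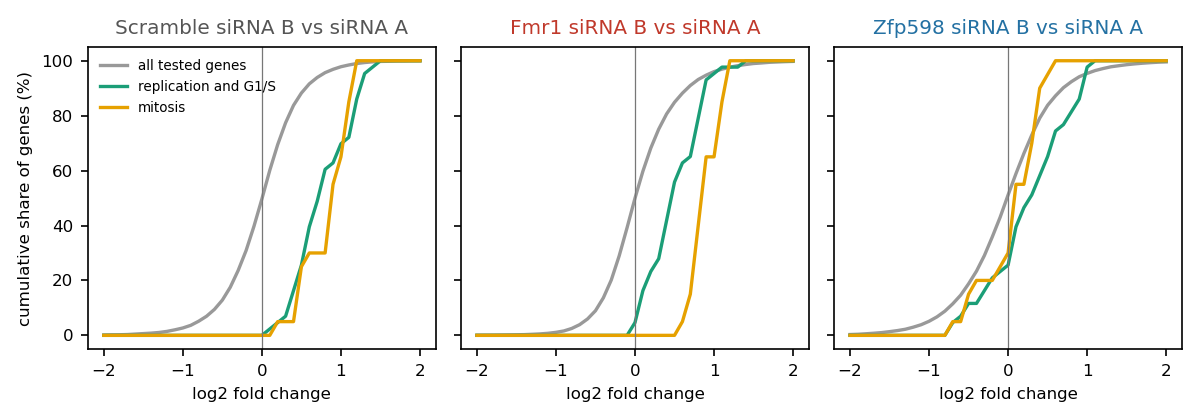
The y axis is the cumulative share of genes (%) with a log2 fold change of siRNA B against siRNA A up to the value on the x axis, for all 17901 tested genes (gray), the 43 replication and G1/S genes (green) and 20 mitosis genes (yellow). Each curve joins the shares at steps of 0.1, and the green curve lies right of the gray one through most of each panel, while the yellow one does so clearly in Scramble KD and *Fmr1* KD.

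Per length of exon, the mean level over the 18 libraries was highest for *Rpa3* (34.9 CPM per kilobase, RPKM), *Pcna* (30.5 RPKM) and *Cdt1* (26.3 RPKM), and lowest for *Fen1* (0.542 RPKM), *Orc1* (1.5 RPKM) and *Chek1* (1.56 RPKM). The MCM subunits were at 5.41 RPKM (*Mcm4*) to 13.5 RPKM (*Mcm6* and *Mcm7*). The strand setting of the counting is not given in the sources used here, so reads of overlapping genes may be shared or lost. Exons of genes on the other strand cover 65.9% of the exon bases of *Fen1*, 67.3% of *Gins2*, 41.4% of *Rfc5*, 29% of *Rfc4* and 24.3% of *Rfc2*. *Pcna* and *Tyms* have annotated pseudogenes, which can take reads from the parent gene.

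The summed level of the fibroblast markers was 40.4 to 41.1 CPM with Scramble siRNA A and 29 to 35.8 CPM with Scramble siRNA B, that of the neuronal markers 2330 to 2490 and 1730 to 1920 CPM, and that of the pluripotent list 115 to 119 and 160 to 176 CPM. In *Fmr1* KD the fibroblast sums were 26.8 to 29.5 CPM with siRNA A and 30.4 to 31.4 CPM with siRNA B, the neuronal sums 1850 to 1950 and 1950 to 2170 CPM, and the pluripotent sums 210 to 222 and 159 to 191 CPM. In *Zfp598* KD they were 26 to 39.1 and 20.2 to 27.2 CPM, 2270 to 2400 and 2150 to 2390 CPM, and 160 to 197 and 152 to 162 CPM. The pluripotent sum was thus higher with siRNA B in Scramble KD and lower in *Fmr1* KD, while the replication sum was higher with siRNA B in both. The part of these shifts in the results of the replication genes was not tested. The stem cell markers that set *Fmr1* siRNA B replicate 1 apart held at most 11 counts each in any other library. The pluripotent sums thus rest mainly on the rest of that list.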

How the data were processed

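RNA-seq of rRNA-depleted total RNA was analysed for 18 libraries of N2A cells. As the authors deposited them, the values are raw counts of reads per gene. They had trimmed reads (Trim Galore), aligned them to GRCm39 (STAR) and counted them over exons with featureCounts, and they used DESeq2. Tool versions, the annotation release and the strand setting are not given in the sources used here. Of 55414 gene identifiers, 54749 (98.8%) were in GENCODE M39.

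Genes were filtered by filterByExpr (count minimum 10, total 15), which left 17901, and scaled by TMM. The quasi-likelihood test of edgeR 4.0.16 (R 4.3.3, limma 3.58.1) was fitted to all 18 libraries, by condition for the pooled comparisons and by 6 siRNA groups for the others. In each of 12 comparisons the Benjamini-Hochberg adjustment covered the 17901 genes, and the scripts were tested on simulated data. SEs come from the log2 fold change and the F statistic. RPKM uses the union of exons. The 43 genes and all other lists were chosen with earlier results of these data known. Genes given in every library are, per role and comparison of siRNA B with siRNA A, the member with the largest absolute log2 fold change, and in the pooled and matched comparisons the 2 with the lowest adjusted p. From the other replication genes, the 3 with the lowest adjusted p per comparison and the CDK inhibitors are named. Other genes, such as *Mcm2*, *Gins2* or *E2f1*, were singled out after their values were seen.

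Alternatives were DESeq2 1.42.0 and its size factors, total counts, no filter, no most counted feature, the siRNA letter as a term, counts summed per siRNA, only the libraries compared, a replicate block and each library left out. Leaving out *Zfp598* siRNA A replicates 2 and 3 together was added after seeing the data. Depth was 7674724 to 15414590 counts per library. No libraries agreed within sampling noise.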

Additional observations from a re-analysis of the deposited data

Results flagged for a closer look

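In 2 of 129 groups of 6 libraries (1.55%) the highest or lowest library lay far from the rest, where chance gives about 1 in 20 for 6 like libraries. Each group here pools 2 siRNAs whose levels differ, so that rate does not apply directly. These were *Rfc4* at 22.7 CPM in *Zfp598* siRNA A replicate 2 and *Rpa2* at 26 CPM in *Zfp598* siRNA A replicate 1.

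The KD effect, taken against the Scramble siRNA of the same letter, differed between the siRNAs of a condition, by a test of the difference itself. This held for 9 of the 43 genes in *Fmr1* KD and for 21 in *Zfp598* KD, all with the effect of siRNA B lower. Of all tested genes, 9.65% were lower and 12.2% higher in *Fmr1* KD, and 11.9% and 10.1% in *Zfp598* KD. In both directions together, the share of the 43 in *Fmr1* KD was near that of all tested genes. Among the genes named in a comparison, the effect of siRNA B minus that of siRNA A in *Fmr1* KD was -0.52 for *Mcm5*, -0.79 for *Mcm7*, -0.84 for *Mcm10*, -1.15 for *Prim1*, -0.68 for *Ccne2* and -0.79 for *Chek1* on the log2 scale. In *Zfp598* KD it was -1.17 for *Mcm3*, -0.93 for *Mcm5*, -1.12 for *Mcm7*, -0.63 for *Cdc45*, -1.19 for *Gins1*, -1.11 for *Mcm10*, -0.65 for *Prim1*, -0.94 for *Pole*, -1.1 for *Lig1*, -0.65 for *Rpa2*, -1 for *Tk1* and -0.56 for *Chek1*. Both sets of differences use the same Scramble libraries.

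The difference of siRNA B from siRNA A itself differed between *Fmr1* KD and *Zfp598* KD for 15 of the 43 genes. It was greater in *Fmr1* KD for 12 and smaller for 3, against 17.6% and 14.4% of all tested genes. In both directions together, the share of the 43 was near that of all tested genes. Among the genes named in a comparison, it was greater in *Fmr1* KD by 0.68 for *Mcm3*, 1.56 for *Gins1*, 0.53 for *Pole*, 1.06 for *Lig1* and 0.76 for *Tk1*, and the difference was -0.47 for *Mcm6* and -0.85 for *Ccne2*. The *Zfp598* KD values of *Gins1* and *Lig1* in it depended on siRNA A replicates 2 and 3, as given above.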

How the results depend on the processing

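Of 784 values of named genes under an alternative, 757 kept direction and side of the threshold, 18 lost the call, 9 gained it and 0 reversed. The number of the 43 genes called with *Zfp598* siRNA A against Scramble siRNA A, 19, was 7 with total counts, 0 with only the libraries compared and 4 without *Zfp598* siRNA A replicates 2 and 3. For the *Fmr1* KD effect between siRNAs, 9 became 15 with only the libraries compared and 16 without that pair. Pooled, *Zfp598* KD had 0 called genes and 1 by DESeq2, with the letter as a term or without that pair, and *Fmr1* KD had 1 called gene, 2 with the letter or without that pair, and 0 with counts summed per siRNA. Leaving out each library in turn gave 0 to 1 genes for *Fmr1* KD pooled and 0 to 2 for *Zfp598* KD pooled. Between the siRNAs it gave 31 to 37 for Scramble, 23 to 31 for *Fmr1* and 22 to 27 for *Zfp598*. Against Scramble it gave 8 to 15 and 5 to 11 for *Fmr1* siRNA A and B, and 8 to 24 and 8 to 19 for *Zfp598* siRNA A and B. For the difference between siRNAs it gave 8 to 15 in *Fmr1* KD, 14 to 23 in *Zfp598* KD, and 11 to 20 between the KDs. The lowest came without Scramble siRNA A replicate 2 or *Zfp598* siRNA A replicate 2 (8 for *Zfp598* siRNA A), *Fmr1* siRNA B replicate 3 or Scramble siRNA B replicate 3 (5 for *Fmr1* siRNA B) and Scramble siRNA B replicate 3 (8 for *Zfp598* siRNA B). Without *Zfp598* siRNA A replicate 1 the *Fmr1* KD effect had 15 and without *Zfp598* siRNA A replicate 3 it had 14. The cause of these changes was not tested. Whether replicate numbers pair the libraries was left undecided. Of 45 pairs of same-numbered libraries from different groups, 12 correlated above 0.1, with a range of -0.345 to 0.29. Of 18 libraries, 11 correlated best with one of their own number. With a replicate block the counts were 1 and 0 pooled, 37, 30 and 25 between siRNAs, 11, 11, 19 and 17 against Scramble, and 12, 20 and 17 for the differences. Genes of low counts, such as *Fen1* at 11 to 37 counts, had the least precision.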
